A study of Bos taurus with 6 samples.

Results

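Broad H3K4me3 domains, stretches of the genome over which this histone mark covers 5 kb or more, were examined in bovine blastocysts, embryos that have set apart an inner cell mass and a trophectoderm but have not implanted. The study produced embryos in vitro, cultured them at 5% oxygen until day 8 (192 h after IVF), and measured H3K4me3 by ChIP-seq with 3 µg of antibody in 3 replicates of about 11 unsexed embryos, each with its own input library from the same sheared chromatin. The replicates came from 2 IVF procedures, so at least 2 of the 3 shared one and their spread is not that of 3 separate fertilisations. All 3 replicates belong to the same single condition, and whole embryos were used, so the widths in the inner cell mass and in the trophectoderm cannot be told apart. According to the paper, the samples mixed blastocysts from early to hatched, so these stages cannot be told apart either. The peaks of the 3 replicates were pooled, and peaks that overlapped or touched were joined into 24746 regions, of which 23861 lay on the autosomes and 16231 of these held a peak in all 3 replicates (called shared regions here). The domains were selected on covered length: a shared region had to be covered by peaks over 5000 bp or more in each replicate, counted separately. This left 660 domains, 4.07% of the shared regions. Covered length is thus a description of how the domains were chosen, and the background values are those of all 16231 shared regions, domains included. With 1 condition and regions chosen from the same peaks, no test was made.

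H3K4me3 is the trimethylation of lysine on the tail of histone H3, and it is laid down by methyltransferase complexes at promoters, most often in a narrow band around the transcription start site. At a minority of promoters it spreads over several nucleosomes into the gene body, and such broad domains are known in many cell types for marking genes of cell identity and for steady, high transcription. In oocytes and early embryos of the mouse, a further, non-canonical kind of broad H3K4me3 away from promoters is known, which is largely lost when the embryonic genome is activated. Peak positions refer to UMD 3.1.1. Gene models of that assembly were not used here, so the domains are named by position, and promoters and genes within them were not analysed here.

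The median covered length of the domains was 7148, 6219 and 6411 bp in replicates 1, 2 and 3. The mean of these medians was 6592 ± 490 bp (SD, n = 3), beside 2288 ± 203 bp for all shared regions. Replicate 1 was the widest for the domains and for the shared regions as a whole, whose medians were 2517, 2128 and 2219 bp in replicates 1, 2 and 3. Between the lower and the upper quartile, covered length of the domains ran from 6326 to 8434 bp (replicate 1), from 5591 to 7192 bp (replicate 2) and from 5692 to 7578 bp (replicate 3). Over all shared regions it ran from 1769 to 3536, from 1422 to 3005 and from 1507 to 3116 bp. The shortest values of the domains were 5042, 5003 and 5010 bp and the longest 23513, 21184 and 22681 bp in the same order. Domains took up 9.51% of all peak-covered autosomal length in replicate 1, 10.9% in replicate 2 and 10.3% in replicate 3 (10.2 ± 0.691%, SD, n = 3), or 5.04, 4.39 and 4.56 Mb. Although replicate 2 had the least domain length, it had the highest share of its covered length in domains. All shared regions took up 87.6, 96.8 and 91.5% of the peak-covered autosomal length in replicates 1, 2 and 3, or 46.5, 39.1 and 40.7 Mb. The order of the replicates was thus not limited to the domains.

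**Figure D1:**
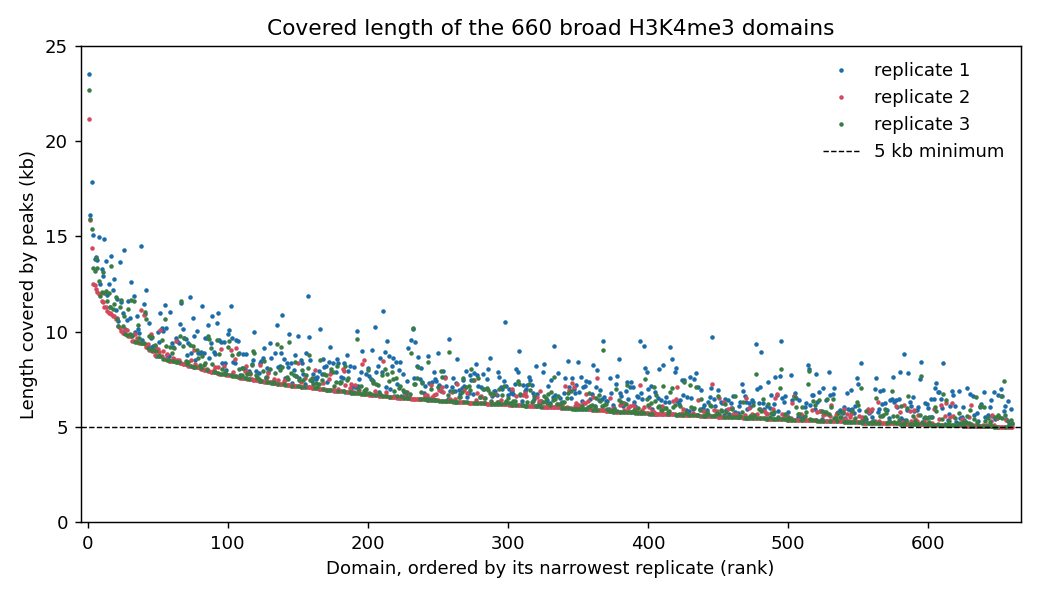
Length covered by peaks (kb) in each of the 660 domains and each replicate, with the domains ordered by their narrowest replicate. The points of replicate 1 lie above those of the other replicates in most domains, and the narrowest value falls steeply from 21184 bp at the first rank to 5003 bp at the last.

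The number of domains fell steadily with width. Taking each domain by its narrowest replicate, 317 (48.0%) lay between 5000 and 6000 bp, 261 between 6000 and 8000 bp, 58 between 8000 and 10000 bp, and 24 at 10000 bp or more. A minimum of 6000 bp in each replicate kept 343 domains and one of 7000 bp kept 167. The domains therefore crowd at the minimum that defined them, and no gap in the values separates them from the regions below. The 5 domains closest to the minimum had narrowest values of 5003 to 5010 bp. The last of these to enter was chr28:35072717-35078483, covered over 5168, 5003 and 5192 bp in replicates 1, 2 and 3. The 5 regions that just missed had narrowest values of 4990 to 4999 bp, and the nearest miss was chr9:102838222-102844578, covered over 6342, 5495 and 4999 bp. Replicate 2 or 3 set the outcome in all 10. One near miss, chr5:63024600-63032703, had 8104, 4994 and 6125 bp in replicates 1, 2 and 3, more than 1 kb over the minimum in all but replicate 2.

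Since the minimum had to be met in each replicate, the replicate with the shortest peaks decided most cases. Replicate 1 was the widest in 536 domains (81.2%), replicate 3 in 72 and replicate 2 in 52, whereas the narrowest was replicate 2 in 402 (60.9%), replicate 3 in 233 and replicate 1 in 27. Over all shared regions replicate 1 was likewise the widest in 70.9% and replicate 2 the narrowest in 54.3%, so the order of the replicates was not limited to the domains. Replicate 2 also had the shortest of the 3 lists, with 18334 autosomal peaks against 21610 in replicate 1 and 21290 in replicate 3, and its H3K4me3 library had the fewest mapped reads. The part of depth in the widths was not tested.

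To see width in a replicate that had no part in the choice, regions were built again from the lists of 2 replicates only, and the cover of the remaining list within their limits was measured. Of 724 autosomal regions of 5000 bp or more in replicates 1 and 2, 643 (88.8%) were covered over 5000 bp or more in replicate 3, with a median of 6122 bp. Of 852 built on replicates 1 and 3, 637 (74.8%) reached it in replicate 2, with a median of 5685 bp. Of 613 built on replicates 2 and 3, 603 (98.4%) reached it in replicate 1, with a median of 6445 bp. Over all autosomal regions held by both lists, the shares were 4.96% in replicate 3, 3.83% in replicate 2 and 5.06% in replicate 1. Most of these regions are themselves too short to be covered over 5000 bp, so the shares of the wide ones had to be higher, and cover is cut at the limits set by the other 2 lists. None of the wide regions was without a peak in the remaining replicate, and most of those that fell short came near. The 215 that fell short in replicate 2 had a median of 4541 bp there, with 174 of them at 4000 bp or more, and the 81 that fell short in replicate 3 had a median of 4727 bp, with 73 at 4000 bp or more. Among the 16231 shared regions built from all 3 lists, 290 reached 5000 bp in 2 replicates and 530 in 1, of which 468 in replicate 1 only, 48 in replicate 3 only and 14 in replicate 2 only.

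The 10 widest domains, ranked by their narrowest replicate, lay on 10 different chromosomes. The widest, chr17:62347713-62371381, was covered over 23513, 21184 and 22681 bp in replicates 1, 2 and 3. It was 1 unbroken peak in replicate 1, 4 peaks in replicate 2 and 2 in replicate 3, and the breaks of replicates 2 and 3 lay at different places. No other domain was covered over 20000 bp in each replicate. The next was chr9:96630488-96647028, with 16138, 15841 and 15904 bp, and it differed least between replicates among the 10. In chr18:61142144-61160036, covered over 17858, 14380 and 15415 bp, replicate 1 had 1 peak, replicate 2 had 2 and replicate 3 had 3. Replicates 2 and 3 both broke near its centre, after position 61150711 in replicate 2 and after 61150988 in replicate 3. A break at a like place in both also occurred in chr2:131622349-131637455 (15064, 12503 and 13332 bp), where the right-hand piece began at 131634039 in replicate 2 and at 131634050 in replicate 3. These shared breaks were bridged by the single peak of replicate 1.

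Of the remaining widest domains, 2 were unbroken in all 3 replicates. The first was chr5:101700182-101714011, covered over 13830, 12469 and 13200 bp. The other was chr12:48100494-48114563, covered over 13938, 12251 and 13844 bp, which had no other shared region within 100 kb on either side. The others were broken in at least 1 replicate. They were chr19:28134105-28147892 (13747, 12101 and 13370 bp, broken in replicates 2 and 3 at overlapping places), chr25:39422378-39437464 (14988, 11976 and 12666 bp, broken in replicate 3), chr13:15997016-16009585 (12488, 11963 and 11882 bp, broken in replicate 2) and chr10:69459660-69472960 (13301, 11595 and 12061 bp, broken in replicate 2). In replicate 1, by contrast, each of the 10 was 1 peak.

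**Figure D2:**
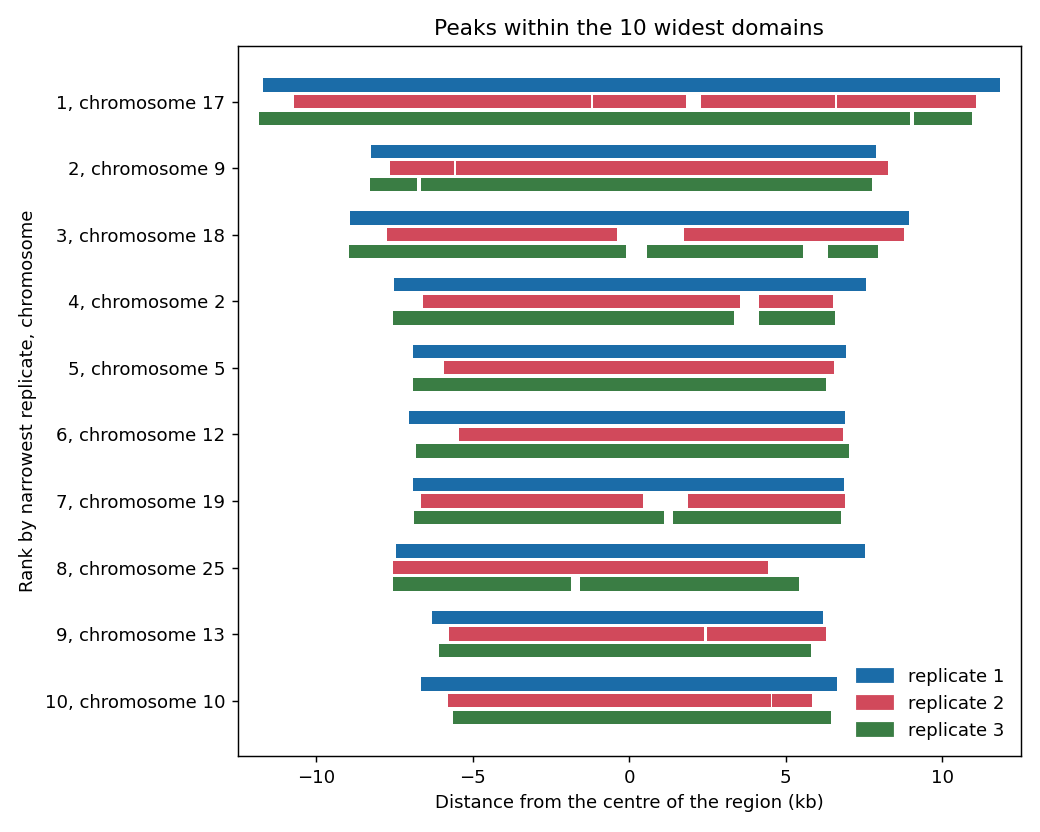
Peaks of each replicate (bars, coloured by replicate) in the 10 widest domains, against distance from the centre of the region (kb), ordered by the narrowest replicate. Replicate 1 shows an unbroken bar in each domain, while the widest domain is drawn as 4 bars in replicate 2 and 2 in replicate 3.

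The number of peaks that made up a domain, its pieces, varied between replicates in the same way over the whole set. A domain was 1 piece in 595 cases (90.2%) in replicate 1, 475 (72.0%) in replicate 2 and 450 (68.2%) in replicate 3. Over all shared regions the shares were 98.1, 96.0 and 93.9%, in the same order of replicates. A domain was 2 pieces in 62, 159 and 172 cases, 3 pieces in 3, 22 and 36, and 4 or more in 0, 4 and 2. In 369 domains (55.9%, Wilson 95% interval 52.1 to 59.7) each replicate had 1 piece, where the share over all shared regions was 91.1%. Longer regions have more room for a break, and the rule used length, so nothing is read from that gap. Of the broken domains, 151 were broken in 1 replicate, 111 in 2 and 29 in all 3. Those broken in 1 replicate only were broken in replicate 3 in 77 cases, in replicate 2 in 65 and in replicate 1 in 9. The piece number was equal in all 3 replicates in 385 domains. In 496 domains the widest single peak alone reached 5000 bp in each replicate, and the other 164 needed the sum of their pieces in at least 1 replicate.

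The breaks were short beside the domains. There were 534 gaps between pieces, 68 in replicate 1, 215 in replicate 2 and 251 in replicate 3, with medians of 143, 241 and 182 bp, a joint median of 195 bp and a range of 1 to 3681 bp. They lay away from the edges. Measured from the nearer edge of the domain, 8 of the 534 gaps lay in the outermost 10% of its length, 17.2% between 10 and 20%, 28.7% between 20 and 30%, 27.0% between 30 and 40% and 25.7% between 40 and 50%. A peak must have some length of its own beyond a gap, so few gaps can lie at the very edge. Where a second replicate was broken too, some of the breaks met and others did not. Another replicate also had a gap in the domain for 58 gaps of replicate 1, 148 of replicate 2 and 168 of replicate 3. Of these, 35 (60.3%), 90 (60.8%) and 96 (57.1%) overlapped a gap of another replicate, with a meeting counted from each side. By the joining rule, a stretch uncovered in all 3 replicates would have parted the region, so such breaks cannot appear here. No background was computed for these shares, which are a description only.

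The most broken domains held 8 or 9 pieces over the 3 replicates, and 5 of them are named here. Domains on chromosomes 3, 4 and 28 also held 8, and only the order of listing left them out. The most broken was chr5:26797252-26811210, with 2, 3 and 4 pieces in replicates 1, 2 and 3. It was followed by chr11:104309914-104320404 (3, 2 and 3), chr16:40044176-40050272 (2, 3 and 3), chr23:30707317-30717410 (1, 4 and 3) and chr25:38811842-38820767 (1, 2 and 5). The last of these was a single peak of 8926 bp in replicate 1, while its pieces summed to 5449 and 5848 bp in the other replicates.

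Covered length varied less between replicates in the domains than in the shared regions, in relative terms. The SD over the mean of the 3 replicates had a median of 7.90% in the domains (range 0.249 to 32.4%), against 12.1% over all shared regions. The narrowest replicate had a median of 86.0% of the widest one's length, against 79.3%. Since a domain had to pass the minimum in its narrowest replicate, uneven regions near the minimum were left out, and this difference is a description only. The stretch covered in all 3 replicates at once, the core, had a median of 5854 bp (3652 to 20946 bp) and made up a median of 83.0% of the length covered in any replicate, against 74.7% over all shared regions. In 589 domains the core itself was 5000 bp or more. The outer edges differed between the replicates by a median of 446 bp on the left and 427 bp on the right, and by 294 and 290 bp over all shared regions. In bp, then, the edges of the domains were less well fixed than those of the shared regions as a whole, although relative to their length the domains were the more even.

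Ranks of the domains by covered length were alike in the 3 replicates. Across the 660 domains, Spearman's rho was 0.771 between replicates 1 and 2, 0.834 between 1 and 3 and 0.798 between 2 and 3, beside 0.916, 0.930 and 0.926 over all shared regions, whose lengths span a wider range. These are descriptions across regions, which share libraries and are not independent replicates. The most uneven domains were far wider in replicate 1 than in the others. The first, chr20:37670802-37681332, was covered over 10531, 6183 and 6280 bp (SD over mean 32.4%). Then came chr5:109580499-109589350 with 8852, 6158 and 5178 bp, chr25:38811842-38820767 (given above), chr2:122082420-122092164 with 9745, 7230 and 5561 bp, and chr14:68723910-68733230 with 9256, 6027 and 5724 bp. In each of these 5, replicate 1 was the widest.

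The peak caller's scores, which rank the peaks within each list, were high in most domains. A score of 3100 is one that many of the strongest peaks of a list share. It was reached or passed in 590 domains (89.4%) in replicate 1, 429 (65.0%) in replicate 2 and 583 (88.3%) in replicate 3. Over all shared regions the shares were 24.6, 7.71 and 21.1%, so the score was rarest in replicate 2 there too. All 3 replicates reached or passed it in 426 domains (64.5%, Wilson 95% interval 60.8 to 68.1), 2 in 140, 1 in 44 and none in 50. Of the shared regions, 7.65% did so in all 3. Scores come from the same peaks as the widths, so this too is a description. The median score percentile of the domains within each list was 90.4, 96.3 and 91.6 in replicates 1, 2 and 3, against 62.7, 55.8 and 62.0 for all shared regions. Because so many peaks share the top score, a percentile cannot order the strongest domains among themselves.

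Low scores were rare. In 5 domains the highest score lay below the median of the list in at least 1 replicate, which was replicate 2 in all 5 and also replicate 3 in 1 of them. That domain, chr25:38811842-38820767, had the lowest mean percentile, at 56.3, 28.5 and 34.9 in replicates 1, 2 and 3, and it is the one whose pieces numbered 5 in replicate 3. The next lowest were chr22:43822266-43829316 (53.3, 45.6 and 54.0), chr23:31668580-31675338 (60.8, 44.1 and 54.5), chr23:31459738-31465516 (61.3, 45.2 and 53.6) and chr1:132442602-132448057 (67.6, 49.0 and 53.7). All 5 had their lowest percentile in replicate 2, and 4 of them were broken in replicates 2 and 3.

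The widest domains were broken more often, and they carried the top score more often, than the narrower ones. From the class of 5000 to 6000 bp to those of 6000 to 8000, 8000 to 10000 and 10000 bp or more, the share made of 1 piece in each replicate went from 63.7 to 52.5, 43.1 and 20.8%. The share with the top score in all 3 replicates went from 52.1 to 72.0, 86.2 and 95.8%. The relative spread between replicates was 8.27, 7.92, 6.97 and 6.70%, and the core was 82.0, 83.1, 85.7 and 86.9% of the covered length. The class of 10000 bp or more holds 24 domains, so that its shares move by several percentage points with a single domain. The classes were cut on the length that chose the domains, and longer regions have more room for a break. Over all shared regions, covered length and score had a Spearman's rho of 0.779, 0.838 and 0.826 in replicates 1, 2 and 3. Within the domains, most of which reached the top score, rho was 0.146, 0.271 and 0.135. These trends are therefore a description only.

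Every autosome held domains, from 7 on chromosome 27 to 47 on chromosome 19, with a median of 21. Chromosome 19 held 7.12% of the domains and 5.96% of the shared regions, and chromosome 18, with 37 domains, held 5.61% of the domains and 6.19% of the shared regions. Per 10 Mb up to the last peak of the chromosome, domains ranged from 1.21 on chromosome 12 to 7.34 on chromosome 19, with a median of 2.53. Chromosomes with more shared regions per 10 Mb also had more domains per 10 Mb (Spearman's rho 0.852 over 29 autosomes, which share the same libraries). Their share of regions that were domains did not follow this density (rho 0.0394). The domains are themselves shared regions, so the densities of domains and of shared regions are not independent measures. Their rho is a description only.

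As a share of its shared regions, chromosome 20 had the most domains, 16 of 254 (6.30%), followed by chromosome 26 with 16 of 294 (5.44%) and chromosome 6 with 24 of 466 (5.15%). Chromosome 16 had the lowest share, 16 of 526 (3.04%), and chromosome 8 the next, 17 of 548. Counted in each replicate on its own, 9.06, 6.69 and 7.09% of the shared regions of chromosome 20 reached 5000 bp in replicates 1, 2 and 3, and 8.94, 4.18 and 5.32% of those of chromosome 16. Chromosome 20 thus ranked 12 of 29 in replicate 1 and 2 of 29 in the others, and chromosome 16 ranked 14, 21 and 20. Between replicates, this share over the 29 autosomes had a Spearman's rho of 0.636 (1 and 2), 0.739 (1 and 3) and 0.479 (2 and 3). On each of the 29 autosomes replicate 1 had the highest share. The lowest and the highest share, 3.04 and 6.30%, rest on 16 domains each. Chromosome 20 lay above chromosome 16 in each replicate, but narrowly in replicate 1, and the ranks of both differed between replicates.

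**Figure D3:**
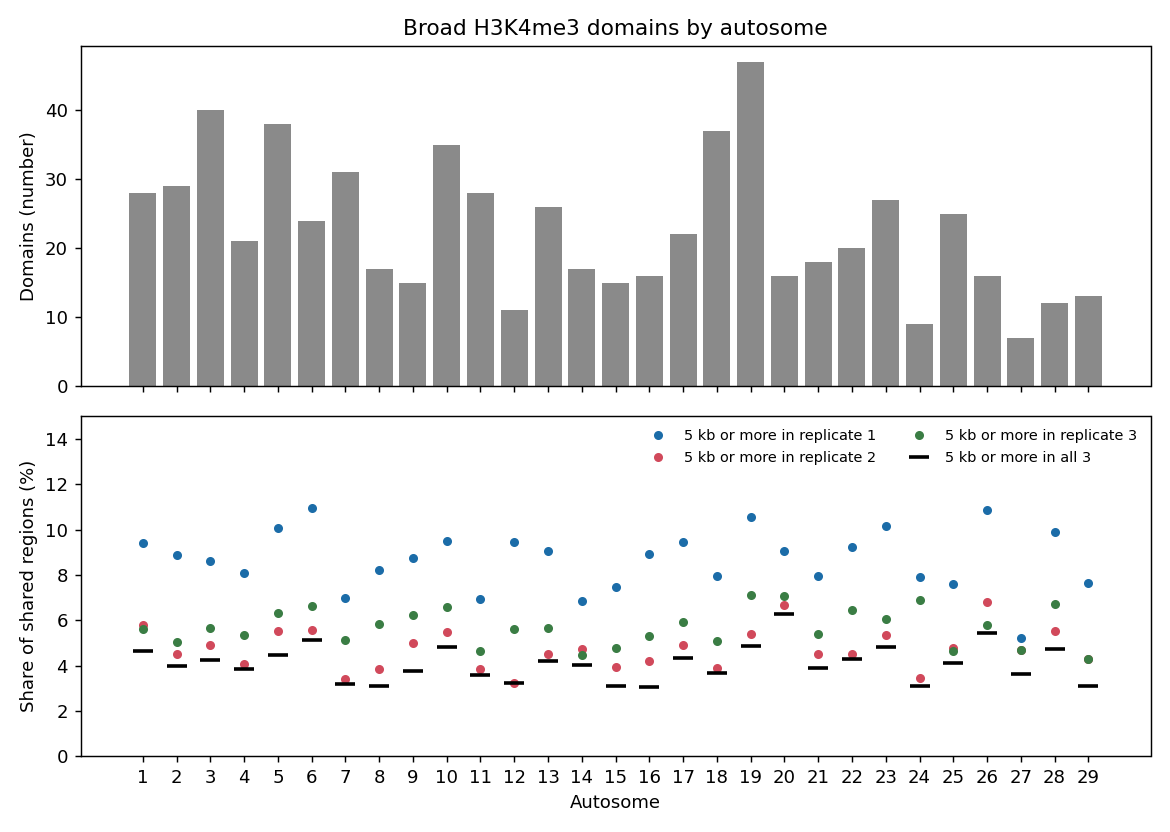
Number of domains on each autosome (bars, upper panel) and, in the lower panel, the share (%) of its shared regions that reached 5 kb in each replicate (points) and in all 3 (black dashes). Chromosome 19 has the most domains with 47, and the points of replicate 1 are the highest on each of the 29 autosomes.

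Domains were spread thinly. The nearest other domain lay at a median of 697 kb from edge to edge (quartiles 216 and 2337 kb), with a range from 356 bp to 27.6 Mb. Another domain lay within 10 kb for 26 domains (3.94%), within 100 kb for 95 (14.4%, Wilson 95% interval 11.9 to 17.3) and within 1 Mb for 388 (58.8%), while 60 (9.09%) had none within 5 Mb. For comparison, 13.2% of all shared regions had another domain within 100 kb. Domains were thus found near other domains about as often as shared regions in general. Between consecutive domains of a chromosome, the 631 distances had a median of 1579 kb, a mean of 3454 kb and a maximum of 44.4 Mb, and the SD was 1.41 times the mean. In 30 of the 631 pairs no other shared region lay in between. Of the 1-Mb windows that held a domain, 379 held 1, 88 held 2, 19 held 3, and 10 held 4 to 7.

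**Figure D4:**
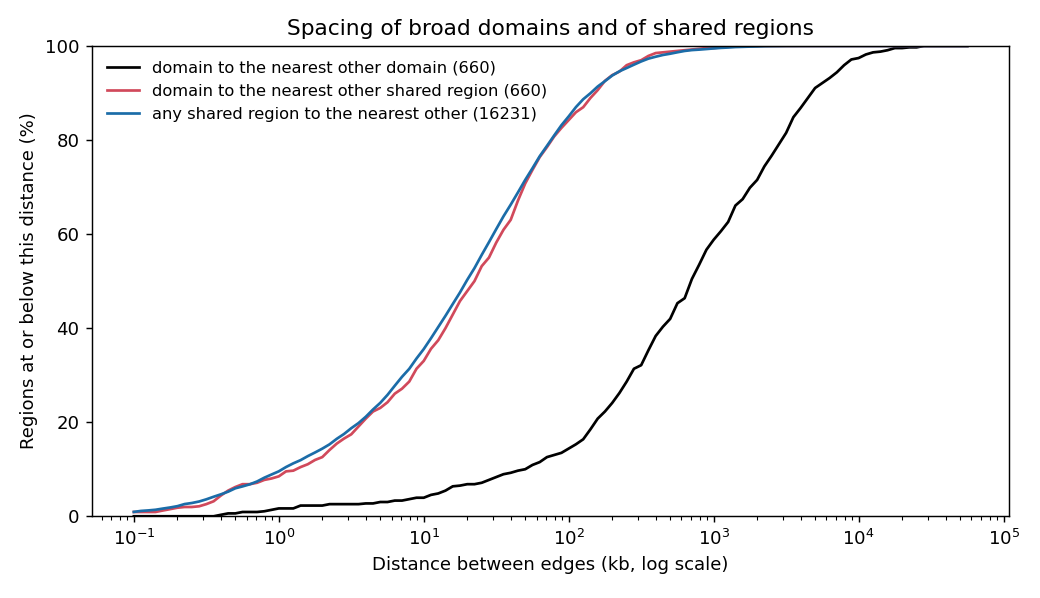
Cumulative share (%) of regions against the distance between edges (kb, log scale) from a domain to the nearest other domain (black), from a domain to the nearest other shared region (red), and from any shared region to the nearest other one (blue). The median domain lies 697 kb from another domain and 22.5 kb from another shared region, and the red and blue curves run close together.

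The closest pairs of domains were separated by less than 1 kb. On chromosome 15, 356 bp lay between chr15:82282215-82292753 (10539, 10321 and 10295 bp in replicates 1, 2 and 3) and chr15:82293110-82302586 (9477, 8212 and 7786 bp). On chromosome 23, chr23:31453359-31459297 (5503, 5939 and 5217 bp) lay 440 bp from chr23:31459738-31465516 (5779, 5385 and 5495 bp) and 766 bp from chr23:31445804-31452592 (6789, 6132 and 5787 bp). The other pairs were chr24:34570122-34578349 and chr24:34578910-34586602, with 560 bp between them, and chr25:39422378-39437464 and chr25:39438327-39446304, with 862 bp. These distances are of the size of the gaps inside broken domains, and such a pair would count as 1 region if peaks up to 1000 bp apart were joined.

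At the other end, 5 domains stood far from any other. They were chr15:1798651-1805449, at 27.6 Mb from the nearest, chr24:4276561-4282639 at 26.7 Mb, chr3:57453755-57461524 at 20.8 Mb, and a pair on chromosome 8, chr8:852758-858813 and chr8:17267155-17273241, at 16.4 Mb from each other. Their covered lengths were unremarkable. The first was covered over 6792, 6007 and 6294 bp as 1 piece in each replicate, and it had 2 other shared regions within 100 kb. Only the domain on chromosome 3 was far from shared regions too, with the nearest at 165 kb, and its cover of 7751, 5448 and 5381 bp came in 1, 2 and 3 pieces.

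When domains less than 100 kb apart were linked into runs, 565 stood alone, and 95 formed 42 runs: 35 of 2 domains, 3 of 3 and 4 of 4. The 4 runs of 4 domains were the longest. The most compact spanned 84.9 kb at chr15:82282215-82367121 and began with the closest pair of all, followed by domains covered over 8882, 7254 and 9217 bp and over 7582, 6477 and 7239 bp. It had 2 other shared regions between its domains. A run of 95.2 kb at chr19:28371260-28466417 held domains covered over 9473, 8924 and 8738 bp, then 7076, 5938 and 5452 bp, then 5268, 5215 and 5332 bp, and last 7722, 7595 and 7625 bp, with 6 other shared regions between them. The run of 113 kb at chr23:31445804-31558355 was the most crowded, with 11 other shared regions, and it held the narrowest domain of the 4 runs. This was its last domain, chr23:31552825-31558355, covered over 5531, 5105 and 5034 bp. The run at chr21:66663568-66919198 was the loosest, at 256 kb with 2 other shared regions, and its domains were covered over 6412, 5194 and 5277 bp, 6607, 5621 and 5484 bp, 9667, 7695 and 8802 bp, and 8058, 6228 and 6918 bp. In this run replicate 1 was the widest in each domain.

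**Figure D5:**
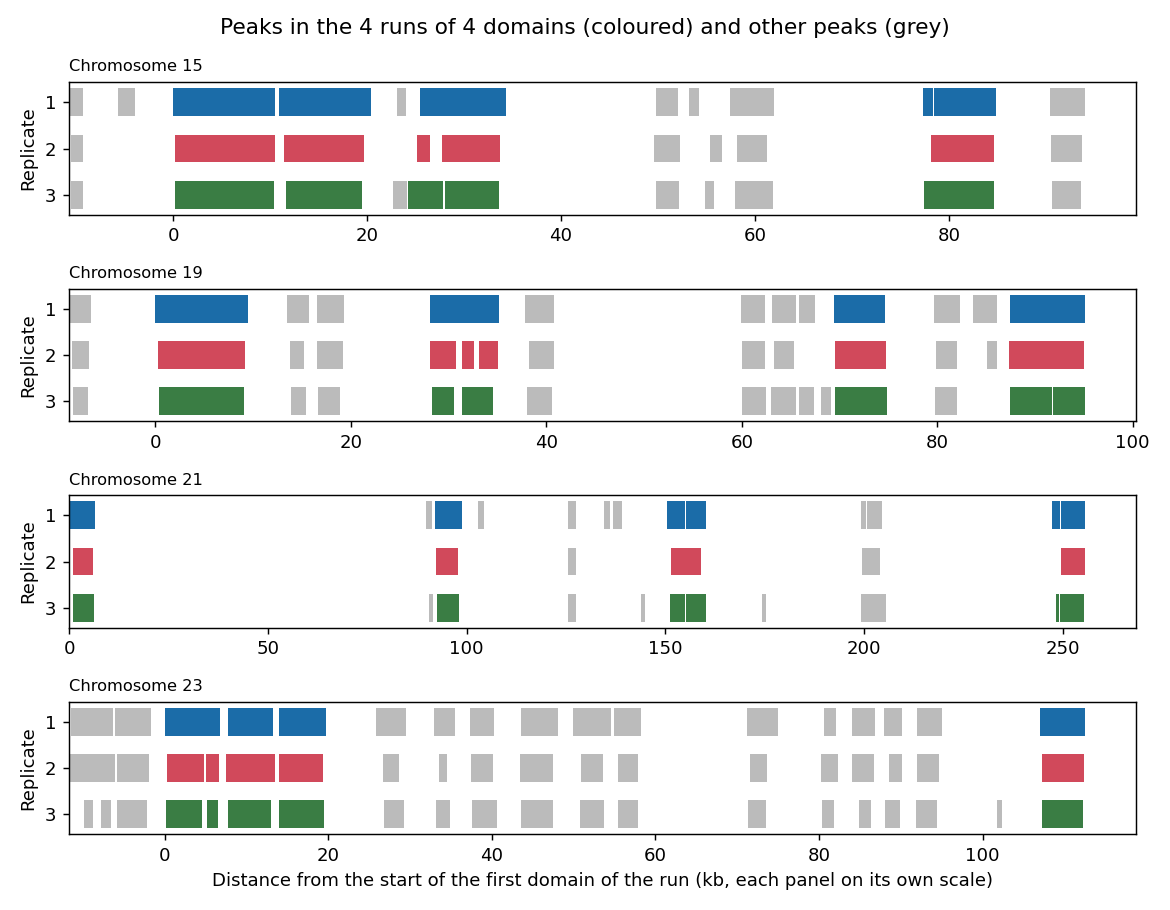
Peaks in the 4 runs of 4 domains by replicate, against distance from the start of the first domain of the run (kb, each panel on its own scale), with domains in colour and other peaks in grey. The run on chromosome 15 is the most compact at 84.9 kb, and the run on chromosome 21 is the longest at 256 kb.

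The surroundings of the domains were much like those of shared regions in general. Another shared region lay within 1 kb of 56 domains (8.48%, against 9.55% of all shared regions), within 10 kb of 218 (33.0%, Wilson 95% interval 29.5 to 36.7, against 35.5%) and within 100 kb of 556 (84.2%, against 85.0%). The median number of other shared regions within 100 kb was 3 for both, and the maximum was 25 for the domains and 27 for all. The nearest shared region was itself a domain for 34 domains (5.15%, against 4.08%). Over all domains the nearest shared region had a median length of 2523 bp, averaged over replicates (against 2263 bp). A further 104 domains (15.8%) had no other shared region within 100 kb. The most crowded domain was chr23:30814953-30823077, with 25 other shared regions within 100 kb and a cover of 8125, 7195 and 7538 bp. Then came chr23:31552825-31558355, chr25:2620272-2629040 and chr29:41735955-41746125 with 20 each, and chr19:27666138-27676368 with 19. The last was covered over 9508, 5884 and 9030 bp, with 1, 2 and 3 pieces in replicates 1, 2 and 3.

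A difference from the background appeared for regions found in only 1 or 2 of the replicates. Such a region lay within 10 kb of 203 domains (30.8%, Wilson 95% interval 27.4 to 34.4), where the share over all shared regions was 19.5%. These 254 regions were small and weak, as were the 2849 near all shared regions. Their median span was 1417 bp, against 1120 bp near all shared regions. In 175 of them (68.9%) the highest score was under 100, against 66.5%. They were found in replicate 1 only in 91 cases (35.8%), in replicate 3 only in 58, in replicate 2 only in 12 and in 2 replicates in 93. Near all shared regions these counts were 970 (34.0%), 626, 181 and 1072, a similar make-up. With peaks of a score of 100 or more only, the shares were 17.3% for the domains and 12.1% for all shared regions, and with equal numbers of peaks in the 3 lists they were 19.7 and 13.6%. Leaving out replicate 1, 2 or 3, so that regions in 1 of the remaining 2 replicates were counted, gave 26.1, 23.2 and 22.9% for the domains against 15.4, 14.3 and 15.4%. The share was higher near the domains under each of these choices. Distances were taken from the edges, and the domains are longer than the other regions, which was not adjusted for.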

How the data were processed

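H3K4me3 ChIP-seq was analysed in 3 replicates of bovine blastocysts. The authors aligned 51-base single-end reads to UMD 3.1.1 (bosTau8) with Bowtie (version 1.2.3 in the submitters' processing notes), used Picard to remove duplicates, and ran MACS on every H3K4me3 library with its own input as control, without pooling. The deposited lists, 1 for each replicate, hold peak positions and a peak score. The MACS version, its threshold and the scale of the score are not given in the sources used here, so scores were ranked only within a list, as percentiles. Scores of 3100 and of 100 also served as fixed cutoffs in every list. Whether they mark the same strength in each list is not known. Read counts per peak are unknown, so single peaks carry no error, and a region missing from the shallowest library can be read only as not detected. Inputs entered only through the peak calling.

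Peaks were pooled and joined with Python 3.11.15, pandas 2.3.3 and NumPy 2.4.6, giving the same regions as bedtools 2.31.1 merge at its default. Covered length was the sum of the peaks of a replicate in a region, in bp, and distances ran from edge to edge. Figures were drawn with Matplotlib 3.10.9. Values over replicates are means ± SD, and the Wilson intervals (SciPy 1.17.1) treat regions as independent and cover counting error only. Which replicates shared an IVF procedure is not given in the sources used here. Regions named in the text are the 10 widest domains by the narrowest replicate, the 5 on either side of the minimum, the 5 closest pairs, the 5 most isolated, most broken, lowest-scoring, most uneven and most crowded domains, and the longest runs. Ties, as among the most broken, were cut by chromosome name and position. The members, the measures and this rule were chosen with earlier results of these data known. The joining and counting were tested on simulated data. Alternatives covered the minimum length, joining distance, length measure, score, peak number and replicates. Gene models, sequences and expression were not analysed here.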

Additional observations from a re-analysis of the deposited data

Results flagged for a closer look

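Peaks outside the autosomal shared regions also included wide ones, which were not counted among the domains. On chromosome X, which was left out, 11 of the 620 regions shared by the 3 replicates (1.77%) reached 5000 bp in each, beside 4.07% of the autosomal shared regions by the same rule, with medians of 6954, 6390 and 6561 bp in replicates 1, 2 and 3. The widest of them was covered over 8249 bp in its narrowest replicate. Among 7630 autosomal regions with a peak in only 1 or 2 replicates, 4 were covered over 5000 bp or more in at least 1 replicate (0.0524%), beside 1480 of the 16231 shared regions (9.12%), and the highest value was 6220 bp.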

How the results depend on the processing

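Of 85 values recomputed for 9 results, 44 stayed within a range set around the reported value. For shares of domains this was the Wilson interval, and for the median length and the share of covered length the SD over replicates. For the median distance it was the SD over sets chosen in single replicates, and for the number of domains a range of 1.5 times. These ranges differ in kind, and the Wilson interval covers counting error only, so the count of 44 does not measure robustness. The background over all shared regions was recomputed only for regions of fewer replicates, so for the other shares the distance from their background under the alternatives was not tested. The number of domains, 660 as reported, left a range of 1.5 times only when the minimum was changed. A minimum of 4000 bp gave 1503 domains, a median of 5350 bp, a median distance of 277 kb, 19.2% of covered length, 66.9% as 1 peak in each replicate, 53.2% with the top score in all 3 and 28.7% with a domain within 100 kb. A minimum of 6000 bp gave 343, 7605 bp, 1610 kb, 6.09%, 48.7%, 76.1% and 10.2%. Joining peaks up to 1000 bp apart gave 12.8% of covered length, 38.8% as 1 peak, 57.1% with the top score and 18.5% with a domain within 100 kb. Using the widest single peak gave a distance of 1226 kb, 7.85% of covered length, 74.4% as 1 peak, 76.2% with the top score and 11.3% with a domain within 100 kb. Equal peak numbers gave 61.6% as 1 peak and 19.7% with a region of fewer replicates within 10 kb. Scores of 100 or more gave 69.0% as 1 peak, 28.1% with a shared region within 10 kb and 17.3% with a region of fewer replicates. Leaving out 1 replicate in turn gave 613 to 852 domains, the most without replicate 2, medians of 6279 to 6495 bp, distances of 486 to 776 kb, 9.67 to 12.1% of covered length, 66.4 to 70.7% as 1 peak, 63.8 to 81.8% with the top score, 12.7 to 19.2% with a domain within 100 kb, 33.3 to 38.8% with a shared region within 10 kb, and 22.9 to 26.1% with a region of fewer replicates. With 1 replicate left out, length, 1 peak and the top score were asked of the remaining 2 only, so these shares are not on the same terms as those of all 3. The peaks of the replicate left out also no longer joined pieces into regions. The number of domains fell to 613 without replicate 1, and the cause of these shifts was not tested. The share of domains with a region of fewer replicates and its alternatives were chosen after seeing the data. No paired analysis was possible because only the H3K4me3 samples have peak lists and no result comes from a test. The lists give no reads, so the part of depth in the number of domains was not tested, and equal peak numbers gave 638.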
